A study of Homo sapiens with 8 samples.

Results

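A set of 39 genes of cholesterol and fatty acid metabolism was followed across 8 RNA-seq libraries of human cardiac fibroblasts in which the translation factor EIF4G2 had been knocked down or not. The genes were chosen by name, as enzymes, regulators and carriers linked to the SREBP transcription factors, from a list drawn up with the knockdown fold changes of these libraries in view. The count table held 59385 gene symbols, all 39 of the set among them, and 16228 genes passed the filter on low counts, again with all 39. The cells were IHCF, an immortalized line of human cardiac fibroblasts. They had been infected with a lentivirus for an shRNA that targets EIF4G2 or for a scramble shRNA without a target, were starved of serum for at least 6 h and then received TGFb for 24 h. All 4 groups shared the starvation and the TGFb, so no library is free of either. RNA was taken from the polysome fraction, which is mRNA bound by several ribosomes, and from the whole lysate (total RNA). This gave 4 groups of 2 libraries, namely knockdown polysomal RNA, scramble polysomal RNA, knockdown total RNA and scramble total RNA. The labels call the libraries of a group biological replicates. The design text speaks of triplicates, and 2 replicates per group were analysed here. Whether the replicates were separate infections is not stated, and p-values cover only the variation among these libraries. No second hairpin or rescue was among these libraries, and effects of the hairpin other than the loss of EIF4G2 cannot be told apart from that loss.

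Animal cells make cholesterol from acetyl-CoA through mevalonate, farnesyl diphosphate, squalene and lanosterol, and make fatty acids from the same acetyl-CoA. SREBF1 and SREBF2 encode membrane-bound transcription factors of the endoplasmic reticulum. When sterols are scarce, the escort protein SCAP carries them to the Golgi, where they are cut and released to activate genes of these pathways, and the INSIG proteins hold SCAP back when sterols are plentiful. Cells with excess sterol instead export it through ABCA1 and ABCG1 or store it as cholesteryl ester made by SOAT1. EIF4G2 (DAP5) resembles the translation scaffold eIF4G without its binding region for eIF4E, the protein that recognizes the mRNA cap.

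The target of the hairpin was low in every knockdown library. EIF4G2, on chromosome 11, had 293 and 327 CPM in knockdown total RNA, against 793 and 785 CPM in scramble total RNA, where CPM is a count scaled to library size with trimmed mean of M-values (TMM) factors. It had 244 and 334 CPM in knockdown polysomal RNA, against 875 and 876 CPM in scramble polysomal RNA. Its log2 fold change was -1.35 ± 0.18 in total RNA and -1.60 ± 0.18 in polysomal RNA (SE, n = 2 libraries per group, as for every fold change here). The adjusted p was 0.0504 and 0.0276 in edgeR's quasi-likelihood test with Benjamini-Hochberg adjustment over all genes tested. About 39.3% of the scramble level was left in total RNA and 33% in polysomal RNA. Each SE rests on an estimate of spread that both fractions share. Replicates were less alike in polysomal RNA, with Pearson correlations of log2 CPM of 0.955 (knockdown) and 0.968 (scramble). In total RNA these were 0.986 and 0.992. Similar SE in the 2 fractions therefore do not show that polysomal values were as precise as total ones.

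Libraries held between 18043714 and 24590030 counts. Polysomal libraries differed from total libraries in make-up, with TMM factors of 0.653 to 0.7511 against 1.367 to 1.452. The first scramble polysome library stood apart in its share of counts from mitochondrially encoded genes, 7.12%, where the other polysome libraries had 14.5% to 17.5% and the total libraries 3.88% to 4.21%. Markers of the labelled cell type were present. Of 10 fibroblast markers, 9 averaged over 1 CPM in total RNA, and DCN did not. Of the 6 cardiomyocyte markers, the 4 hepatocyte markers and the 5 adipocyte markers, 0 did so, and MYH6, MYH7, ALB, TTR, ADIPOQ and LEP had 0 counts in all 8 libraries. The 10 fibroblast markers summed to 6020 to 6230 CPM in knockdown total RNA and to 5470 to 5560 CPM in scramble total RNA. Of 5 endothelial markers, PECAM1, KDR and TEK averaged over 1 CPM, with a sum over the list of 10 to 12.2 CPM in knockdown and 11.2 to 12.9 CPM in scramble total RNA, and 0 of 5 leukocyte markers did. The part of these markers in the results was not tested.

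SREBPs bind sterol regulatory elements (SRE), often beside a CCAAT box bound by NF-Y and a GC box bound by Sp1. RefSeq's table of promoters, build GRCh38.p14, held 47 entries for 34 members. ABCG1, ACAT2, FASN, FDFT1 and SQLE were not matched. The 250 bases before the start of the table's first entry are printed for 6 of the genes on which the results turn, the 4 whose knockdown values were already known to stand out (HMGCS1, INSIG1, SCD, NCEH1), the regulator SREBF2 and the enzyme gene FDPS. They run 5' to 3' along the strand of the gene. Capitals mark TCACNCNAC, CCAAT or GGGCGG on either strand, so ATTGG and CCGCCC are also in capitals, being CCAAT and GGGCGG read on the other strand.
HMGCS1, chr5:43313413-43313662, minus strand: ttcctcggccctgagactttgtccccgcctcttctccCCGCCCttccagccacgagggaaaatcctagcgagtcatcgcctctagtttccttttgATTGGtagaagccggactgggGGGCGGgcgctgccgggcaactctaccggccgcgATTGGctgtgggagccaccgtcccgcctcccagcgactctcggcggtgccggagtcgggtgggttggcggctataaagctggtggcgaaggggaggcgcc
FDPS, chr1:155308616-155308865, plus strand: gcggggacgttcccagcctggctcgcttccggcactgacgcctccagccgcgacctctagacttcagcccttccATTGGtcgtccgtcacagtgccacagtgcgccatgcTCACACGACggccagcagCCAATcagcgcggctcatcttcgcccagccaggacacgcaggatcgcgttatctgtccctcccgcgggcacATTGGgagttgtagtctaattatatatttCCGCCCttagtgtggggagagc
INSIG1, chr7:155297628-155297877, plus strand: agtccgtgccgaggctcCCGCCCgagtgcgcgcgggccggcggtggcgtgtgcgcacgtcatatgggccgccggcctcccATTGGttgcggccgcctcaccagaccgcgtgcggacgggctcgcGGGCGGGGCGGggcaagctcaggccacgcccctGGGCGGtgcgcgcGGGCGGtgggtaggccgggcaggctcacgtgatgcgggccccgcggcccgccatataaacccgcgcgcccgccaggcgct
SREBF2, chr22:41832855-41833104, plus strand: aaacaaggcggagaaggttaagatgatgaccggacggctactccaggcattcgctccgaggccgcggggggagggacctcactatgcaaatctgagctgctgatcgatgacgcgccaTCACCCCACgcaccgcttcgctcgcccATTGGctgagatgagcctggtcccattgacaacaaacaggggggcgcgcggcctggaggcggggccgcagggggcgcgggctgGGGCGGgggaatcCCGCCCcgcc
SCD, chr10:100346983-100347232, plus strand: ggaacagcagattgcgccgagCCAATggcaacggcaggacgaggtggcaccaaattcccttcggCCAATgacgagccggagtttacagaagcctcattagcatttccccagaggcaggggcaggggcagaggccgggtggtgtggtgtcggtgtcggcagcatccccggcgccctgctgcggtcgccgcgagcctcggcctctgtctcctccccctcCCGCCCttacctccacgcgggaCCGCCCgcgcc
NCEH1, chr3:172711068-172711317, minus strand: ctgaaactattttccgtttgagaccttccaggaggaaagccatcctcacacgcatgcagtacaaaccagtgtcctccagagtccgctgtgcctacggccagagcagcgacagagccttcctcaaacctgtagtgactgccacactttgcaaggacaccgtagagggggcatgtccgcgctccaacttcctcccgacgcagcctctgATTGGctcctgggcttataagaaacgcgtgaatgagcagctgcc
SREBF2 held the strict element TCACNCCAC, 133 to 125 bases before its start, beside a CCAAT box in reverse. It was the only member entry of the 47 that did (2.13%), against 0.883% of all 35116 promoter entries and 0.856% of the 16118 entries of tested genes. The looser TCACNCNAC, which includes the strict one, was in 4 entries, those of FADS2, FDPS, HSD17B7 and SREBF2 (8.51%), against 2.02% of all entries and 1.9% of those of tested genes. CCAAT was in 27 entries from 23 genes (57.4%), against 32% of all entries and 32.4% of those of tested genes. GGGCGG was in 41 entries from 32 genes (87.2%), against 42.6% of all entries and 62.3% of those of tested genes. The E-box CACGTG was in 5 entries from 4 genes (10.6%), against 6.34% of all entries and 8.01% of those of tested genes. All motifs were searched on both strands. Such matches are letters in a window and say nothing by themselves of binding, and a gene with no match in 250 bases may be bound elsewhere.

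In scramble total RNA the set covered a wide range of levels per length. CPM per kilobase of transcript was highest for the desaturases FADS2 at 114 and SCD at 109, then for squalene synthase FDFT1 at 99.6 and ATP citrate lyase ACLY at 82.1. FASN, the multi-domain fatty acid synthase, had 57.3 CPM per kilobase, and FDPS, which makes farnesyl diphosphate, had 67.7. The exporters ABCG1 at 0.202 and ABCA1 at 1.21, with ACACA, an acetyl-CoA carboxylase, at 0.224, were at the low end. Lanosterol demethylase CYP51A1 stood at 2.29 CPM per kilobase. CYP51A1 and FADS2 share exon sequence with genes on the same strand, and the part of this in their levels was not tested. The 39 genes together summed to 3247 and 3341 CPM in knockdown total RNA, against 4055 and 4010 CPM in scramble total RNA. They summed to 5677 and 5961 CPM in knockdown polysomal RNA, against 6582 and 6879 CPM in scramble polysomal RNA.

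Most of the pathway stood lower in knockdown cells, in both fractions. Since the list was selected on these fold changes, the values of this comparison are given as a description, and no count of calls among the members is used as support. In total RNA 30 members had a log2 fold change below 0 and 9 above, with a median of -0.29 and a range of -0.72 to 1.26. All 16228 genes had a median of 0.02, with 47.1% below 0. For 26 of 39 members (66.7%) both knockdown libraries lay below both scramble libraries, and for 3 (SCAP, NPC2 and NCEH1) both lay above. Over all genes tested the shares were 23.1% and 24.8%. In polysomal RNA 29 members were below 0 and 10 above, with a median of -0.23 and a range of -1.17 to 1.01. All genes had a median of -0.01 there, with 51.4% below 0. Without the second knockdown polysome library the members' median was -0.40, beside -0.09 over all genes. In polysomal RNA 17 members (43.6%) lay below scramble without overlap and 2 (SREBF2 and NCEH1) above, against 18.5% and 15.5% of all genes. Both fractions showed the lower level without overlap for 14 members (35.9%), against 6.16% of all genes, and the higher level for NCEH1 (background 5.68%). With edgeR 0 members were called in total RNA (0% of all genes) and 0 in polysomal RNA (0.0123% of all genes, 0.00616% in each direction), while 9 and 14 members had an unadjusted p under 0.05, as did 3.68% and 13.3% of all genes. DESeq2 called 4 members in total RNA and 3 in polysomal RNA, beside 0.16% and 1.4% of all genes. Nothing is read from these shares and counts, since the list was drawn up on these contrasts. In RNA from whole cultures, fewer cells expressing a gene and less of its mRNA per cell cannot be told apart.

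**Figure D1:**
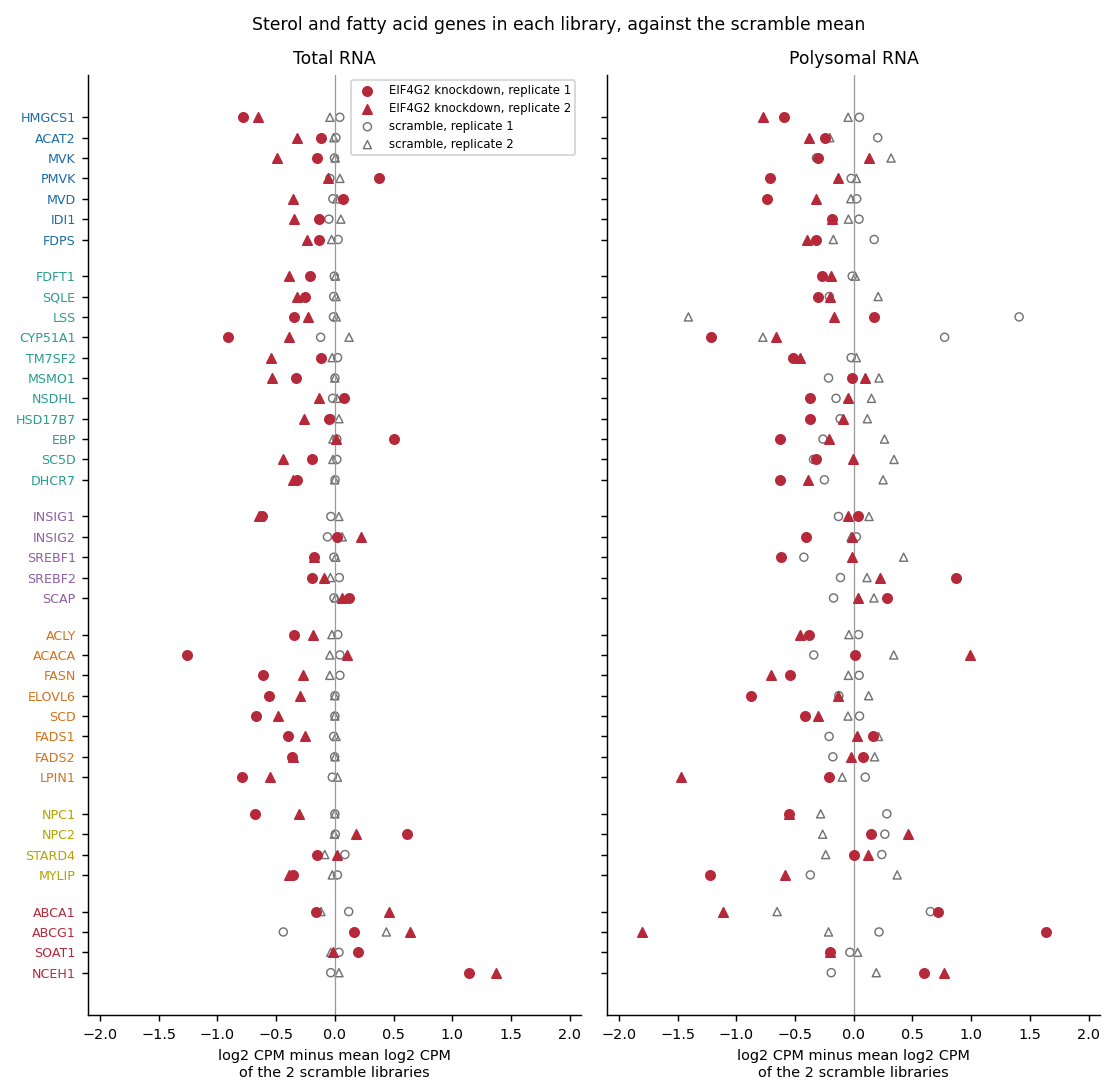
Each point is 1 library's log2 CPM minus the mean log2 CPM of the 2 scramble libraries of the same fraction, for the 39 genes ordered by role (mevalonate steps, sterol steps, regulators, fatty acid genes, uptake and trafficking, efflux and storage); filled red points are EIF4G2 knockdown, open points scramble, circles replicate 1 and triangles replicate 2. In total RNA 29 and 30 of the 39 genes lie below 0 in the 2 knockdown libraries, and the scramble points of most genes are closer together in total than in polysomal RNA.

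The values of each knockdown library are given as a description, since the list was drawn up on the fold changes of these libraries. Against the scramble mean of its fraction, the members' median log2 deviation was -0.20 and -0.27 in the 2 knockdown total libraries, where all genes had medians of 0.03 and 0, and -0.30 and -0.19 in the 2 knockdown polysome libraries, where all genes had -0.01 and 0. Between 28 and 30 members lay below 0 in each of the 4. Without the first knockdown total library, whose median transcript length per count was 2712 nt beside 2960 to 3018 nt in the other 3 total libraries, the members' median was -0.27, with 30 below 0.

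Counts by role, here and in the paragraphs that follow, are a description, since the list was drawn up on these fold changes. Among the 7 early steps from acetyl-CoA to farnesyl diphosphate, 6 were below 0 in total RNA (median -0.22) and all 7 in polysomal RNA (median -0.37). HMGCS1, the cytosolic HMG-CoA synthase, had the lowest fold change of the 39 in total RNA. Its level was 40.0 and 43.8 CPM in knockdown total RNA, against 70.9 and 66.9 CPM in scramble total RNA. In polysomes it was 71.5 and 62.9 CPM in knockdown polysomal RNA, against 111 and 104 CPM in scramble polysomal RNA. The groups stood well apart in both fractions, with log2 fold changes of -0.72 ± 0.14 and -0.68 ± 0.14. ACAT2, the cytosolic thiolase that joins acetyl-CoA units, had 82.6 and 71.8 CPM in knockdown total RNA, against 90.5 and 89.3 CPM in scramble total RNA. Its polysomal level was 464 and 422 CPM in knockdown polysomal RNA, against 634 and 478 CPM in scramble polysomal RNA, with the scramble libraries wide apart. IDI1, which isomerizes isopentenyl diphosphate, had 69.7 and 60.4 CPM in knockdown total RNA, against 74.1 and 79.5 CPM in scramble total RNA. On polysomes, IDI1 was at 397 and 396 CPM in knockdown polysomal RNA, against 465 and 437 CPM in scramble polysomal RNA. FDPS had 91.1 and 84.9 CPM in knockdown total RNA, against 102 and 98.1 CPM in scramble total RNA, and 375 and 357 CPM in knockdown polysomal RNA, against 529.9 and 416 CPM in scramble polysomal RNA. None of these groups overlapped, and the log2 fold changes of ACAT2, IDI1 and FDPS in total RNA were smaller than that of HMGCS1, at -0.22 ± 0.17, -0.24 ± 0.14 and -0.18 ± 0.16. In polysomal RNA they were -0.33 ± 0.17, -0.19 ± 0.14 and -0.37 ± 0.16. Mevalonate kinase MVK was below scramble without overlap in total RNA alone (log2 -0.31), and the decarboxylase MVD in polysomal RNA alone (log2 -0.52). PMVK, phosphomevalonate kinase, had 32.2 and 23.8 CPM in knockdown total RNA, against 24.1 and 25.5 CPM in scramble total RNA, a spread that covered the scramble values. It had 19.0 and 28.5 CPM in knockdown polysomal RNA, against 30.8 and 31.7 CPM in scramble polysomal RNA.

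Of the 11 sterol genes from squalene synthesis onward, 10 were below 0 in each fraction, with medians of -0.30 in total and -0.27 in polysomal RNA. FDFT1 had 162 and 144 CPM in knockdown total RNA, against 188 and 189 CPM in scramble total RNA. Its polysomal values were 673 and 712 CPM in knockdown polysomal RNA, against 806 and 820.1 CPM in scramble polysomal RNA. TM7SF2, a sterol reductase acting at carbon 14, had 27.1 and 20.2 CPM in knockdown total RNA, against 29.9 and 28.9 CPM in scramble total RNA. Polysomal TM7SF2 stood at 143 and 149 CPM in knockdown polysomal RNA, against 201 and 208 CPM in scramble polysomal RNA. Both genes were lower in knockdown without overlap, with log2 fold changes of -0.30 and -0.23 (FDFT1, total and polysomal) and -0.31 and -0.49 (TM7SF2, total and polysomal). DHCR7, which completes cholesterol by reducing 7-dehydrocholesterol, had 105 and 103 CPM in knockdown total RNA, against 131 and 131 CPM in scramble total RNA. In the polysome fraction DHCR7 had 166 and 196 CPM in knockdown polysomal RNA, against 216 and 306 CPM in scramble polysomal RNA. Its log2 fold changes were -0.34 ± 0.18 and -0.52 ± 0.18. Squalene epoxidase SQLE, CYP51A1, the methyl oxidase MSMO1, the keto-reductase HSD17B7, the desaturase SC5D and lanosterol synthase LSS were below scramble without overlap in total RNA alone, between -0.15 (HSD17B7) and -0.64 (CYP51A1). NSDHL, a decarboxylating sterol dehydrogenase, was at -0.02 and -0.21 with overlapping libraries. EBP, the sterol isomerase, had 36.2 and 25.7 CPM in knockdown total RNA, against 25.8 and 25.2 CPM in scramble total RNA, and it was the 1 sterol step above 0 in total RNA. It had 211 and 282 CPM in knockdown polysomal RNA, against 273 and 392 CPM in scramble polysomal RNA, so the 2 scramble libraries lay further apart than the 2 group means.

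Of the 5 regulators, INSIG1 was the lowest in total RNA. It had 44.1 and 43.1 CPM in knockdown total RNA, against 66.2 and 69.4 CPM in scramble total RNA, a log2 fold change of -0.63 ± 0.15 with no overlap. On polysomes INSIG1 had 324 and 305 CPM in knockdown polysomal RNA, against 288 and 345 CPM in scramble polysomal RNA, with the knockdown libraries between the scramble ones and a log2 fold change of -0.01 ± 0.14. SREBF2, the main activator of sterol genes, had 166 and 179 CPM in knockdown total RNA, against 196 and 186 CPM in scramble total RNA. Its polysomal level was 160.2 and 102 CPM in knockdown polysomal RNA, against 80.9 and 94.7 CPM in scramble polysomal RNA. SREBF2 was thus lower in total and higher in polysomal RNA, both without overlap, a pattern met by 1 of 39 members and by 2.18% of all genes; the reverse pattern was met by 0 members and 3.24% of all genes. SREBF1, the main activator of fatty acid genes, had 72.6 and 72.9 CPM in knockdown total RNA, against 81.8 and 82.7 CPM in scramble total RNA, and 21.5 and 32.8 CPM in knockdown polysomal RNA, against 24.7 and 44.6 CPM in scramble polysomal RNA with overlap. INSIG2 and SCAP were near 0, at 0.12 and 0.09 in total RNA and -0.20 and 0.16 in polysomal RNA, although both knockdown libraries of SCAP lay above both scramble libraries in total RNA.

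All 8 fatty acid genes were below 0 in total RNA, with a median of -0.43 and a range of -0.67 to -0.26, and 5 of 8 in polysomal RNA, with a median of -0.39. ACLY, which makes cytosolic acetyl-CoA from citrate, had 280.5 and 313 CPM in knockdown total RNA, against 362 and 350.2 CPM in scramble total RNA. Its polysomal values were 189 and 179 CPM in knockdown polysomal RNA, against 253 and 239 CPM in scramble polysomal RNA. FASN had 322 and 408 CPM in knockdown total RNA, against 506 and 476 CPM in scramble total RNA. Polysomal FASN was far less abundant, at 47.7 and 42.5 CPM in knockdown polysomal RNA, against 71.8 and 67.4 CPM in scramble polysomal RNA. For both genes all knockdown libraries were below all scramble libraries, with log2 fold changes in total and polysomal RNA of -0.26 ± 0.14 and -0.42 ± 0.14 for ACLY and of -0.43 ± 0.16 and -0.62 ± 0.16 for FASN. SCD, the stearoyl-CoA desaturase that makes oleate, had 369 and 418 CPM in knockdown total RNA, against 587 and 586 CPM in scramble total RNA. It had 282 and 306 CPM in knockdown polysomal RNA, against 390.3 and 365 CPM in scramble polysomal RNA. ELOVL6, which lengthens palmitate, had 30.8 and 37.0 CPM in knockdown total RNA, against 45.6 and 45.5 CPM in scramble total RNA. The ELOVL6 polysomal values were 20.9 and 35.1 CPM in knockdown polysomal RNA, against 35.2 and 42.0 CPM in scramble polysomal RNA, nearly touching. SCD was at -0.57 ± 0.15 and -0.36 ± 0.15, and ELOVL6 at -0.43 ± 0.22 and -0.47 ± 0.23. LPIN1, a phosphatidate phosphatase and SREBP target, had 32.9 and 38.9 CPM in knockdown total RNA, against 56.3 and 58.0 CPM in scramble total RNA. Its polysomal libraries gave 15.6 and 6.45 CPM in knockdown polysomal RNA, against 19.3 and 16.9 CPM in scramble polysomal RNA, with the second knockdown library far below the first. The desaturase FADS1 had 151 and 167 CPM in knockdown total RNA, against 198 and 201 CPM in scramble total RNA, and 257 and 235 CPM in knockdown polysomal RNA, against 199 and 266 CPM in scramble polysomal RNA. FADS1 and FADS2 were therefore lower without overlap in total RNA alone, at -0.33 and -0.36, and at 0.08 and 0.02 in polysomal RNA. ACACA had few counts, 0.879 and 2.40 CPM in knockdown total RNA, against 2.30 and 2.17 CPM in scramble total RNA, and its direction in total RNA turned without the first knockdown library (log2 0.10).

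**Figure D2:**
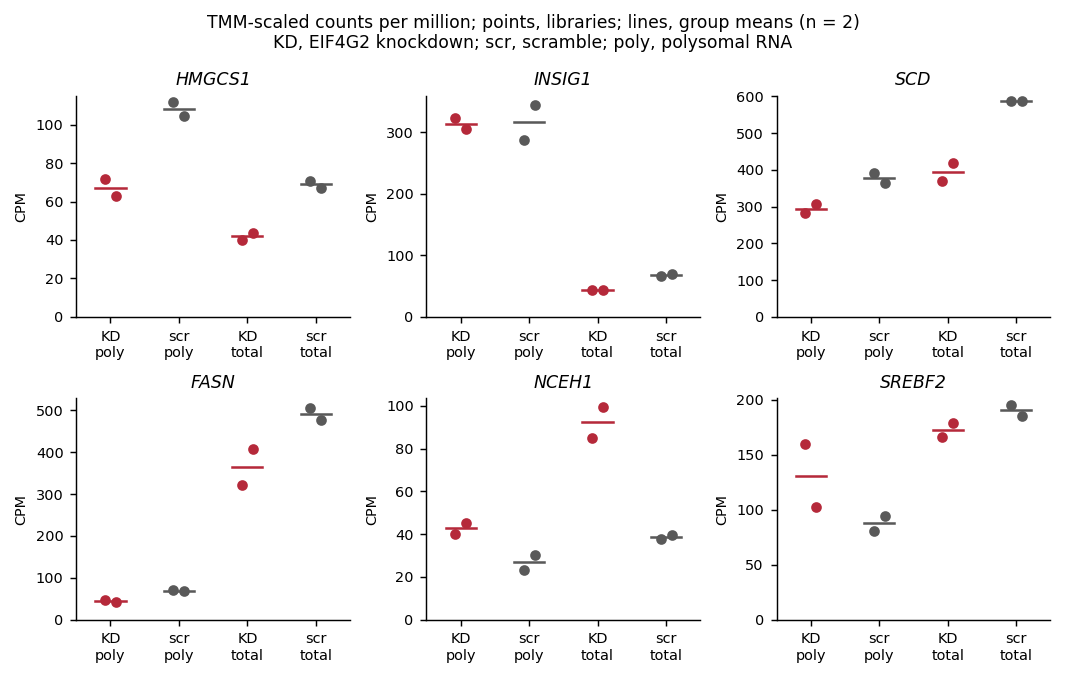
TMM-scaled CPM (vertical axis, from 0) in each library of 6 genes; points are libraries, lines are means of 2 libraries, and each panel runs from knockdown polysomal and scramble polysomal to knockdown total and scramble total RNA. HMGCS1, SCD and FASN are lower and NCEH1 higher in knockdown in both fractions, INSIG1 is lower in total RNA alone, and SREBF2 is lower in total and higher in polysomal RNA.

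Genes of uptake and movement of sterol were mixed. NPC1, the membrane protein that lets cholesterol out of lysosomes, had 24.0 and 31.1 CPM in knockdown total RNA, against 38.5 and 38.5 CPM in scramble total RNA. It had 16.3 and 16.3 CPM in knockdown polysomal RNA, against 29.1 and 19.7 CPM in scramble polysomal RNA. MYLIP, a ubiquitin ligase also called IDOL that is induced by LXR receptors and lowers lipoprotein uptake, had 9.95 and 9.75 CPM in knockdown total RNA, against 13.0 and 12.6 CPM in scramble total RNA. Its polysomal level was low, at 1.21 and 1.95 CPM in knockdown polysomal RNA, against 2.27 and 3.86 CPM in scramble polysomal RNA. NPC1 and MYLIP were lower in knockdown without overlap in both fractions, at log2 -0.48 ± 0.21 and -0.38 ± 0.28 in total RNA and -0.58 ± 0.22 and -0.97 ± 0.36 in polysomal RNA. NPC2, the soluble partner of NPC1, was higher in knockdown total RNA, with 44.2 and 32.7 CPM in knockdown total RNA, against 28.9 and 28.8 CPM in scramble total RNA. On polysomes it had 313 and 389 CPM in knockdown polysomal RNA, against 340.2 and 236 CPM in scramble polysomal RNA, which overlap. The sterol carrier STARD4 was at -0.07 in total and 0.04 in polysomal RNA.

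The 4 genes of efflux and storage were all above 0 in total RNA, with a median of 0.29 and a range of 0.10 to 1.26. For 3 of them the sign rested on 1 library. SOAT1 was at -0.01 without the first knockdown total library, ABCA1 at -0.17 without the second, and ABCG1 at -0.02 without the first scramble total library. NCEH1, which hydrolyses stored cholesteryl ester, carried the upper end. It had 85.0 and 99.7 CPM in knockdown total RNA, against 37.6 and 39.5 CPM in scramble total RNA. The polysomal values were 40.3 and 45.3 CPM in knockdown polysomal RNA, against 23.3 and 30.4 CPM in scramble polysomal RNA. No library of one group reached the other, and the log2 fold changes were 1.26 ± 0.17 and 0.67 ± 0.17. ABCA1, which exports cholesterol to apolipoproteins, had 11.4 and 17.5 CPM in knockdown total RNA, against 13.8 and 11.7 CPM in scramble total RNA, with overlap. It had 5.67 and 1.53 CPM in knockdown polysomal RNA, against 5.41 and 2.14 CPM in scramble polysomal RNA. SOAT1 had 82.2 and 71.1 CPM in knockdown total RNA, against 73.5 and 70.0 CPM in scramble total RNA. In polysomal RNA it had 47.2 and 47.4 CPM in knockdown polysomal RNA, against 53.1 and 55.6 CPM in scramble polysomal RNA, lower in knockdown without overlap. ABCG1 was too low to place, at 0.753 and 1.09 CPM in knockdown total RNA, against 0.467 and 0.933 CPM in scramble total RNA and with 0 counts in the second knockdown polysome library.

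Whether the polysomal share of an mRNA differed with knockdown was fitted as the interaction of hairpin and fraction. This is the polysomal minus the total knockdown fold change, the 2 contrasts behind the list, so it is not independent of how the members were chosen. The members' values are therefore a description. With edgeR's quasi-likelihood test 0 of 39 members and 0 of all 16228 genes (0%) passed an adjusted p of 0.05. Unadjusted p was under 0.05 for 4 members and for 6.27% of all genes, and DESeq2 called 0 members and 4 genes (0.0246%). The change in the log2 ratio of polysomal to total RNA had a median of -0.10 over members, with 23 below 0 (59%) and 16 above. All genes had a median of -0.07, with 55.9% below 0, so the members were close to the background. INSIG1 had a change of 0.63 ± 0.20 (edgeR adjusted p 0.776), with a lower total level and polysomal levels that overlapped those of scramble. SREBF2 had 0.73 ± 0.28 (edgeR adjusted p 0.776), and 0.35 without the first knockdown polysome library. NCEH1 went the other way, at -0.59 ± 0.24, as did EBP, at -0.71 ± 0.32 (edgeR adjusted p 0.776 each). EBP was at -0.44 without the first knockdown total library. HMGCS1, lowest in total RNA, had a ratio change of 0.04 ± 0.20. A missed threshold does not show that the ratios were alike.

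Most sterol synthesis mRNAs were higher, and most fatty acid and efflux mRNAs lower, in polysomal than in total RNA. In knockdown cells 19 members were higher and 14 lower in polysomal than in total RNA by edgeR's quasi-likelihood test, where 28.9% of all genes were higher and 34.1% lower (63% either way, or 66.5% at an unadjusted p under 0.05). In scramble cells 18 were higher and 14 lower, against 29.7% and 33.7% of all genes (63.4% either way, or 66.9% unadjusted). The 2 comparisons contrast different libraries, but a single fit to all 8 libraries gave them a shared filter, scaling and estimate of spread. Their calls are therefore not independent. The same 18 were higher in both and the same 13 lower in both, and DESeq2 called the same members, beside 62.4% of all genes in knockdown and 62.8% in scramble cells. Fold changes are relative to the TMM scale, on which the median of all genes was -0.16 in knockdown and -0.17 in scramble cells. The members' medians were 0.62 in knockdown and 0.22 in scramble cells, and the first was 0.15 without the second knockdown polysome library and 0.22 without the first knockdown total library. Of the 7 mevalonate genes 6 were higher on polysomes and 0 lower in each condition, with a range of -0.24 to 2.61 in knockdown and 0.33 to 2.63 in scramble cells. Of the 11 sterol genes 9 were higher in each condition, and 2 were lower in knockdown and 1 in scramble cells, with medians of 1.99 and 1.85. The 8 fatty acid genes had 1 higher and 5 lower in knockdown and 0 higher and 5 lower in scramble cells, with medians of -0.56 and -0.59. Of the 4 efflux and storage genes 0 were higher and 3 lower in each condition, with medians of -1.05 in knockdown and -1.06 in scramble cells.

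**Figure D3:**
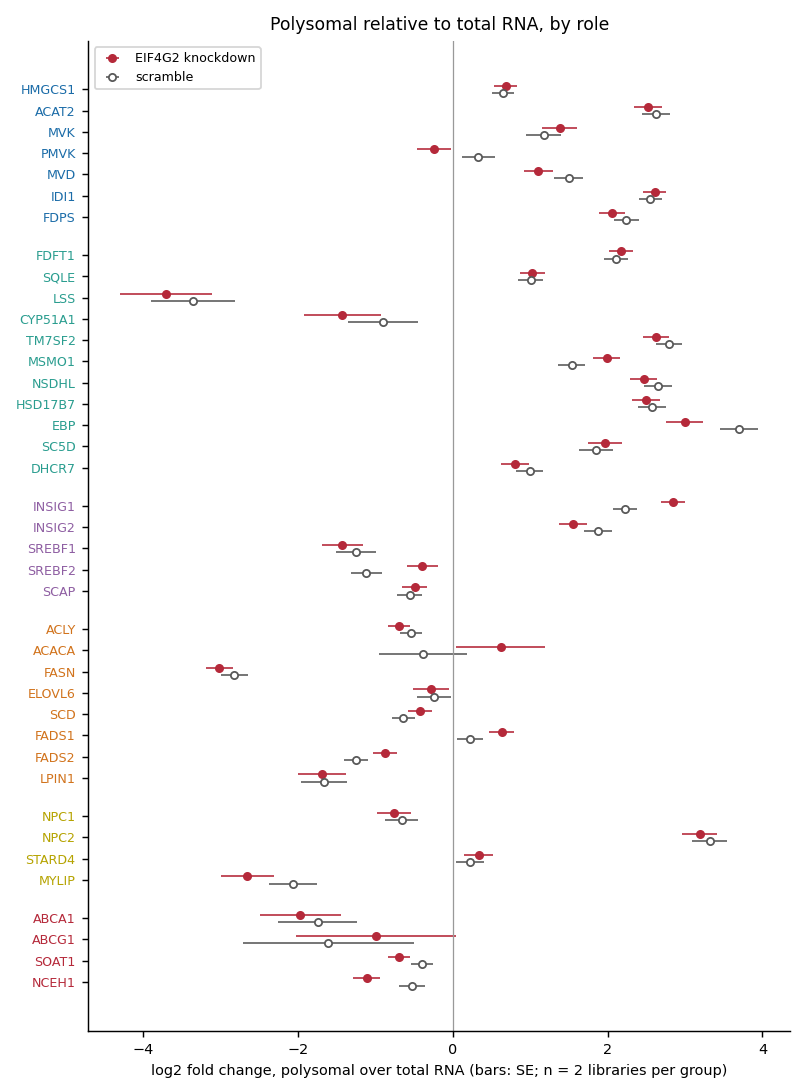
Log2 fold change of polysomal over total RNA (horizontal axis) for the 39 genes by role, in EIF4G2 knockdown cells (filled red) and scramble cells (open grey); bars are standard errors from edgeR, n = 2 libraries per group. Most mevalonate and sterol genes lie right of 0 in both, with LSS and CYP51A1 left of it, and the fatty acid and efflux genes lie mostly left.

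ACAT2 was the mevalonate gene highest on polysomes, with 634 and 478 CPM in polysomal RNA, against 90.5 and 89.3 CPM in total RNA, of scramble cells. Its log2 fold change was 2.52 in knockdown cells and 2.63 ± 0.18 in scramble cells (edgeR adjusted p 1.15e-06 in scramble). PMVK was the lowest of that group, with 30.8 and 31.7 CPM in polysomal RNA, against 24.1 and 25.5 CPM in total RNA, of scramble cells, and it passed the test in neither condition. With the 4 scramble libraries alone PMVK passed in scramble cells, as higher on polysomes (0.35, edgeR adjusted p 0.0451). Without the second knockdown polysome library PMVK (-0.68) and ELOVL6 (-0.82) passed in knockdown cells, as lower on polysomes. Among sterol genes EBP was the highest, with 273 and 392 CPM in polysomal RNA, against 25.8 and 25.2 CPM in total RNA, of scramble cells. EBP was at 2.99 on the log2 scale in knockdown cells and at 3.70 ± 0.25 in scramble cells (edgeR adjusted p 9.95e-07 in scramble). LSS lay at the other end, with 3.47 and 0.416 CPM in polysomal RNA, against 20.1 and 20.4 CPM in total RNA, of scramble cells, and a log2 fold change of -3.35 ± 0.55 (edgeR adjusted p 0.00028). LSS was therefore scarce on polysomes while its neighbours in the pathway, FDFT1 (2.11), SQLE (1.01) and MSMO1 (1.54), were higher there. CYP51A1 was lower on polysomes in knockdown cells alone (log2 -1.42, edgeR adjusted p 0.0278, against -0.90, adjusted p 0.105, in scramble). That call was lost without the second knockdown total library (-1.17) or the first knockdown polysome library (-1.25), and without the first scramble polysome library CYP51A1 passed in scramble cells too (-2.01, edgeR adjusted p 0.004).

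Among the regulators the 2 INSIG mRNAs were higher on polysomes. INSIG1 had 324 and 305 CPM in polysomal RNA, against 44.1 and 43.1 CPM in total RNA, of knockdown cells, and 288 and 345 CPM in polysomal RNA, against 66.2 and 69.4 CPM in total RNA, of scramble cells. Its log2 fold change was 2.85 ± 0.15 in knockdown and 2.22 ± 0.15 in scramble cells, both past the threshold (edgeR adjusted p 4.3e-07 and 1.04e-06). INSIG2 was at 1.55 in knockdown and 1.87 in scramble cells. SREBF1 was lower, with 24.7 and 44.6 CPM in polysomal RNA, against 81.8 and 82.7 CPM in total RNA, of scramble cells, or -1.25 ± 0.26 on the log2 scale (edgeR adjusted p 0.00153). SCAP was lower too, at -0.49 in knockdown and -0.56 in scramble cells. SREBF2 did not pass in knockdown cells (-0.39, edgeR adjusted p 0.104) and was lower in scramble cells (-1.12, edgeR adjusted p 0.000546). With all 8 libraries and no filter on low counts SREBF2 did pass in knockdown cells (-0.57, edgeR adjusted p 0.00525). It also passed there without the first knockdown polysome library (-0.85) and without either scramble polysome library (-0.51 each). The difference between the conditions was the interaction given above, which did not pass.

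FASN was the fatty acid gene lowest on polysomes, with 71.8 and 67.4 CPM in polysomal RNA, against 506 and 476 CPM in total RNA, of scramble cells. The log2 fold change was -3.01 ± 0.17 in knockdown and -2.82 ± 0.17 in scramble cells (edgeR adjusted p 5.66e-07 and 7.11e-07). FADS1 had the highest value of the group, with 199 and 266 CPM in polysomal RNA, against 198 and 201 CPM in total RNA, of scramble cells. It passed in knockdown cells alone (0.63, edgeR adjusted p 0.0065), and not without the first knockdown total library (0.53, adjusted p 0.057) or the first knockdown polysome library (0.47, adjusted p 0.0609). SCD, LPIN1, FADS2 and ACLY were lower in both conditions, at -0.64, -1.66, -1.25 and -0.54 in scramble cells. SCD in knockdown cells (-0.42) lost the call without any 1 of 4 libraries, both scramble total libraries, the second knockdown total library and the first knockdown polysome library. NPC2 was the uptake gene highest on polysomes, with 340.2 and 236 CPM in polysomal RNA, against 28.9 and 28.8 CPM in total RNA, of scramble cells and a fold change of 3.32 ± 0.23. MYLIP was the lowest, with 2.27 and 3.86 CPM in polysomal RNA, against 13.0 and 12.6 CPM in total RNA, of scramble cells and -2.06 ± 0.31 (edgeR adjusted p 1.15e-06 and 0.000161). Among storage and efflux genes SOAT1, with 53.1 and 55.6 CPM in polysomal RNA, against 73.5 and 70.0 CPM in total RNA, of scramble cells, was the highest at -0.40. ABCA1, with 5.41 and 2.14 CPM in polysomal RNA, against 13.8 and 11.7 CPM in total RNA, of scramble cells, was the lowest at -1.74 ± 0.51 (edgeR adjusted p 0.0282 and 0.0115). In knockdown cells the calls of NPC1 and ABCA1 were lost without the second knockdown total library (-0.59 and -1.66) and that of SCAP without the first (-0.49). In scramble cells those of NPC1, SOAT1, NCEH1, ABCA1, ACLY, HMGCS1 and SCAP were each lost without at least 1 scramble library, with the same sign. Without the first scramble total library these were NPC1 (-0.69), SOAT1 (-0.39), NCEH1 (-0.59) and ACLY (-0.54), and without the second they were NPC1 (-0.69), SOAT1 (-0.47), NCEH1 (-0.52), HMGCS1 (0.57) and SCAP (-0.58). NCEH1 (-0.45) was lost without the first scramble polysome library, and NPC1 (-0.47) and ABCA1 (-1.29) without the second.

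Short mRNAs made up the polysome-rich side. By the GENCODE v29 transcript with the longest coding sequence, the 18 members higher on polysomes in scramble cells ran from 729 to 3506 nt with a median of 2099 nt. The 14 lower ones ran from 1666 to 10494 nt with a median of 4665 nt, and the 7 not called had a median of 4525 nt. Across the 39 members, Spearman's rho between length and the polysomal-over-total log2 fold change was -0.63 in knockdown and -0.67 in scramble cells. Across 12683 genes with a length it was -0.56 in knockdown and -0.61 in scramble cells. These are descriptions across genes of the same libraries, and genes are not independent replicates. Within length classes in scramble cells, members up to 2000 nt (11 genes) had a median of 2.24 where all genes of that class had 1.29. From 2000 to 3000 nt all 6 members, MVK, IDI1, SQLE, MSMO1, SC5D and DHCR7, were above the median of their class, 1.36 against 0.24. From 4000 to 6000 nt the 10 members had -0.60 against -1.07, and above 6000 nt the 5 members had -0.40 against -1.63. Between 3000 and 4000 nt the 7 members had -0.90 against -0.50, with ACAT2, INSIG1 and HMGCS1 above the class median and CYP51A1, FADS2, ABCG1 and LPIN1 below. MYLIP, at 1666 nt, was lower on polysomes among genes of a class that was mostly higher. Whole libraries moved the same way, with a median transcript length per count of 1542 to 1702 nt in polysomal and 2712 to 3018 nt in total RNA. The part of length in these results was not tested.

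**Figure D4:**
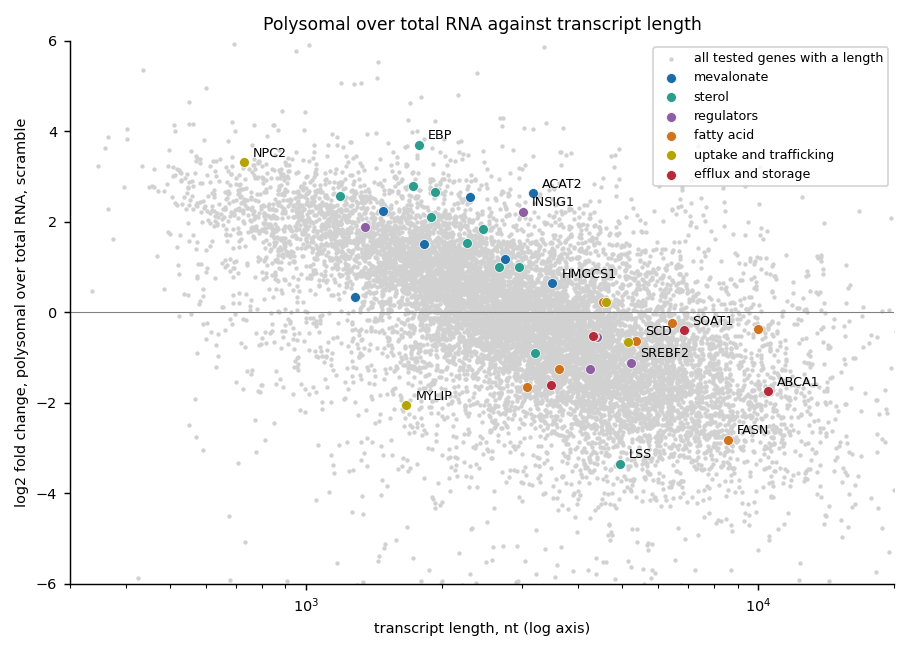
Transcript length in nt (horizontal, log axis) against the log2 fold change of polysomal over total RNA in scramble cells (vertical); grey points are the 12683 tested genes with a length, of which 191 fall outside the plotted range, and coloured points are the 39 members by role. Members follow the downward slope of the other genes, with EBP and ACAT2 above it and MYLIP and LSS below.

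Length also moved with the knockdown difference in total RNA. Across 12683 genes Spearman's rho between length and the knockdown log2 fold change was -0.38, and across the 39 members it was -0.23. Members had lower medians than all genes in every class, at -0.12 against 0.16 up to 2000 nt, -0.31 against 0.06 from 2000 to 3000 nt, -0.63 against -0.02 from 3000 to 4000 nt, -0.22 against -0.08 from 4000 to 6000 nt, and -0.43 against -0.14 above 6000 nt. These medians are a description, since the list was drawn up on these fold changes, and the part of length was not tested. The overall length of members, with a median of 3180 nt, was close to that of all genes, 3128 nt.

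Overlapping genes limit some of these values. In GENCODE v29, 18 of the 39 members share exon sequence with another gene, 17 of them with one on the opposite strand and 5 with one on the same strand. Among pairs on opposite strands, ACAT2 shares it with TCP1 and SOD2, MVK with MMAB, FADS1 with FADS2, NPC2 with ISCA2, STARD4 with STARD4-AS1 and SREBF2 with SREBF2-AS1. Whether counting used strand is not given in the sources used here, so counts of such pairs could not be divided with certainty. On the same strand, CYP51A1 shares it with AC000120.2 and AC000120.3, TM7SF2 with VPS51, FADS2 with FEN1, FADS1 with MIR1908 and NPC2 with MIR4709. Strand would not divide the reads of these, and their part in the levels of CYP51A1, TM7SF2 and FADS2 was not tested.

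Other lipid genes were taken from 6 lists beside the members. These lists are no comparison group for the members, which were drawn up with the knockdown fold changes in view. The 6 lists had medians between -0.07 and 0.17 for knockdown in total RNA, where all genes had 0.02 and 47.1% below 0. There, 11 of 18 tested genes of fatty acid activation, elongation and desaturation were below 0 (median -0.07), 7 of 15 further sterol factors (median 0.00), 11 of 16 glycerolipid and lipid droplet genes (median -0.04), 5 of 13 genes of the isoprenoid branch (median 0.07), 8 of 13 genes of SREBP processing and turnover (median -0.04) and 4 of 12 LXR and PPAR targets and receptors (median 0.17). No gene of the 6 lists passed edgeR's test for knockdown in total or polysomal RNA or for the ratio, and DESeq2 called 2, ANGPTL4 as higher in total RNA and LBR as lower in polysomal RNA. Over all genes edgeR called 0% in total RNA, 0.0123% in polysomal RNA and 0% for the ratio, and DESeq2 0.16%, 1.4% and 0.0246%. ANGPTL4, a secreted inhibitor of lipoprotein lipase, had 16.9 and 16.0 CPM in knockdown total RNA, against 7.44 and 6.38 CPM in scramble total RNA, a log2 fold change of 1.25 ± 0.29 (edgeR adjusted p 0.767, DESeq2 adjusted p 0.0254). LBR, a sterol reductase of the inner nuclear membrane that is named here because of that call, had 48.2 and 57.6 CPM in knockdown polysomal RNA, against 72.1 and 95.4 CPM in scramble polysomal RNA. Its log2 fold change was -0.66 ± 0.17 (edgeR adjusted p 0.182, DESeq2 adjusted p 0.0357). PPARG, the fat-cell receptor that also induces ANGPTL4, was at 0.54. ACSS2, which makes acetyl-CoA from acetate and is an SREBP target, was at -0.38 in total and -0.41 in polysomal RNA. MLYCD was at 0.42, AGPAT2 at 0.41, GRAMD1B at 0.46, FNTB at 0.21, NUS1 at -0.19, SEC24A at -0.29 and SEC23A at -0.25. LPIN3 (-0.42) and FAXDC2 (-0.51) were under 6 CPM in every library. The 2 genes of each list with the smallest p for the ratio were ACADVL, CPT1A, FITM2, NUS1, PGGT1B, CYB5B, FAXDC2, MBTPS1, UFD1, AGPAT2, MLYCD and ACACB, all with edgeR adjusted p of 0.776 or more. Their ratio changes were 2.08 (FAXDC2), 0.55 (FITM2), 0.30 (CYB5B), 0.24 (MBTPS1), -0.20 (UFD1), 0.36 (NUS1), -0.36 (AGPAT2), -0.48 (PGGT1B), -0.64 (CPT1A), -0.79 (ACADVL) and -1.02 (MLYCD). FAXDC2 had 9 and 9 counts in knockdown and 4 and 4 in scramble polysomal RNA. ACACB, the carboxylase of the outer mitochondrial membrane, had 0.0675 and 0 CPM in knockdown polysomal RNA, against 0.866 and 0.831 CPM in scramble polysomal RNA. These were 1 and 0 counts against 16 and 14. Its ratio change was -4.27 ± 0.98. Polysomal counts of ACACB and FAXDC2 were too low for either ratio change to be relied on. On polysomes relative to total RNA in scramble cells, edgeR's test called 29.7% of all genes higher and 33.7% lower. Of 15 further sterol factors 11 were higher and 3 lower, and of 13 isoprenoid genes 8 were higher and 1 lower. Of 16 glycerolipid genes 5 were higher and 9 lower, and of 13 SREBP processing genes 4 and 6. Of 12 LXR and PPAR genes the counts were 5 and 5, and of 18 genes of the fatty acid list 7 and 4.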

How the data were processed

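Poly(A)-enriched RNA of the whole lysate and of polysomes was sequenced paired-end from 8 libraries. The authors deposited raw counts per gene symbol; per the submitters' processing notes the tools were bcl2fastq 2.19.0, Trimmomatic 0.36, HISAT2 2.1.0, featureCounts of Subread 2.0.1, DESeq2 and R 4.1.2, with build GRCh38 (hg38). The annotation and the use of strand are not given in the sources used here. Library totals were 18043714 to 24590030 counts.

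Counts were fitted with edgeR 4.0.16 in R 4.3.3 (TMM, filterByExpr, robust quasi-likelihood, a mean per group, 8 libraries, 4 residual degrees of freedom), with Benjamini-Hochberg adjustment over 16228 genes at 0.05. The contrasts were knockdown against scramble in each fraction, the interaction, and polysomal against total RNA in each condition. DESeq2 1.42.0 and the other settings named in the closing section were alternatives. Values shown as log2 CPM used a prior count of 2. Lengths came from GENCODE v29, promoters from RefSeq.

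The members and lists were chosen with earlier results of these data known. Values of every library are printed for HMGCS1, INSIG1, SCD and NCEH1, for members whose groups do not overlap in either fraction in the same direction, and for the highest and lowest member of each role in polysomal over total RNA of scramble cells. From each other list, the 2 genes with the smallest ratio p and the 2 with the largest knockdown fold change are named.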

Additional observations from a re-analysis of the deposited data

Results flagged for a closer look

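SREBF2 is set out because both knockdown libraries lay below both scramble libraries in total RNA and above both in polysomal RNA. This pattern was met by 1 of 39 members (2.56%) and by 2.18% of all genes, so it was about as common among members as elsewhere. SREBF2 had 166 and 179 CPM in knockdown total RNA, against 196 and 186 CPM in scramble total RNA. It had 160.2 and 102 CPM in knockdown polysomal RNA, against 80.9 and 94.7 CPM in scramble polysomal RNA. The change in its polysome-to-total ratio was 0.73 on the log2 scale, and the test of that difference did not pass (edgeR quasi-likelihood, adjusted p 0.776; DESeq2 adjusted p 0.719). The ratio is built from the contrasts behind the list, so it is not independent of how the members were chosen. Leaving out 1 library at a time gave 0.35 to 0.97, the lowest without the first knockdown polysome library. A gene on the opposite strand, SREBF2-AS1, shares exon sequence with SREBF2, and its part in these counts was not tested.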

How the results depend on the processing

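The alternatives run were DESeq2, median-of-ratios scaling, no filter, non-robust dispersion, replicate block, the relevant 4 libraries alone and each library left out. Counts of members below 0 stayed within 1.5 times of the main count under each, in all 5 comparisons. That limit could hardly be missed, since a near-even split of the members would also have met it, so no stability is read from it. For knockdown and for the ratio, these counts also come from the contrasts behind the list. Counts of called members for knockdown moved; the list was drawn up on these contrasts, and the calls support nothing. In total RNA edgeR called 0, DESeq2 called 4 (HMGCS1, INSIG1, SCD and NCEH1), the fit without a filter called 1 (NCEH1) and the 4 total libraries alone called 1 (NCEH1). In polysomal RNA edgeR called 0, DESeq2 called 3 (HMGCS1, FASN and NCEH1) and the fit without a filter called 3 (HMGCS1, FASN and LPIN1); the cause was not tested. Over all genes, the call count for polysomal knockdown was 2, against 183 without the second knockdown polysome library, 228 with DESeq2 and 502 without a filter. For total knockdown it was 0, against 26 with DESeq2, 38 without a filter and 10 with the 4 total libraries alone, and for the ratio 0, against 4 with DESeq2, 64 without a filter and 2 without the second knockdown polysome library. Leaving out each library gave 0 to 0 called members for knockdown and for the ratio, and for polysomal over total RNA 29 to 35 in knockdown cells and 27 to 32 in scramble cells. Members below 0 ranged over 29 to 30 (total), 27 to 32 (polysomal), 20 to 25 (ratio) and 18 to 19 (polysomal over total, each condition). Of 1144 tested member values, 1108 held, 23 lost the call, 10 gained it and 3 reversed, none of them called: STARD4 in scramble fractions (-0.14 to 0.38), FADS1 in scramble fractions (-0.06 to 0.31) and ACACA in knockdown fractions (-0.09 to 1.49). Without a filter the median of all genes of polysomal over total RNA moved to -0.70 in knockdown and -0.58 in scramble cells. The members' median moved to 0.43 in knockdown and 0.08 in scramble cells, and the cause of these moves was not tested. The differences between replicates 1 and 2, taken over genes, were nearly uncorrelated between groups (correlations -0.0921 to 0.0264). This does not settle whether libraries of the same replicate number were paired, which the labels do not state. With the replicate block edgeR called 0 members for knockdown in total RNA, in polysomal RNA and for the ratio. It called 33 and 32 for polysomal over total RNA in knockdown and scramble cells. In that order of comparisons, 30, 29, 23, 18 and 18 members were below 0. Having 2 libraries per group limits what could be called, and low counts limit ABCG1, ACACA, CYP51A1 and LSS on polysomes.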
